A study of Homo sapiens with 12 samples.

Results

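The genes of laminin-332 and of the receptors that hold epithelial cells to it were followed across 12 RNA sequencing libraries labelled PANC-1. This is an established human cell line from a pancreatic ductal carcinoma. The identity of the line in either population was not tested. The set has 9 genes of the 23284 listed in every library, namely LAMA3, LAMB3, ITGA6, ITGB4, ITGA3, ITGB1, COL17A1, DST and PLEC. They were chosen by name, with differences between the cell populations in these same libraries already known, so the population differences below are a description. They are given without p-values, and counts past the threshold of the fit stand only beside the share of all genes. Of the 9 genes, 8 passed the filter on low values that left 12946 genes, and COL17A1 did not.

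Both populations carried a retroviral reporter in which ZsGreen is fused to the degron of ornithine decarboxylase, so that cells of low proteasome activity fluoresce. Degron (−) was the infected PANC-1 line as a whole, with few ZsGreen-positive cells, and degron (++) was the brightest fraction of a line enriched by repeated sorting and culture. Each population gave 3 groups of 2 libraries, namely unirradiated cells (0 Gy) collected at 48 h and irradiated cells (4 Gy) collected at 30 h or 48 h. The study compared the populations in search of genes linked to radioresistance. The zero point of these hours is not labelled, and there was no unirradiated group at 30 h. Nothing says that the 2 libraries of a group came from separate cultures, so p-values measure the spread between these libraries only, which may be technical. The 6 libraries taken as degron (−) are ZsGreen-negative in their titles but d+ in their descriptions.

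Values were deposited as FPKM, fragments scaled to exon length and to the number of mapped reads, which hold no counts, so that depth is unknown and no counting interval is given. FPKM summed to between 829654 and 916877 in a degron (++) library and between 707273 and 763064 in a degron (−) library, and MIR622 alone held 28.6% to 30.0% of the first and 22.5% to 27.1% of the second. Replicates correlated at 0.961 to 0.975, and 12 of 12 libraries correlated best with one of their own population. Of the labelled cell type, the ductal epithelial markers KRT7, KRT8, KRT18, KRT19 and EPCAM summed to 7119 to 8303 FPKM in degron (++) and 4220 to 5124 in degron (−), and all 5 were higher in degron (++). The basal and squamous markers KRT5, KRT14, TP63 and DSG3 summed to at most 0.567 FPKM in any library. Endothelial markers summed to at most 0.556. Among the immune markers CD68, a lysosomal protein, gave nearly all of 124 to 165 FPKM in degron (−), against 2.96 to 4.64 in degron (++). The fibroblast markers COL1A1, DCN and LUM summed to 14.3 to 25.3 in degron (++) and 37.0 to 53.7 in degron (−), but in opposite directions. COL1A1 had 0.531 to 0.826 FPKM in degron (++) and 36.5 to 52.3 in degron (−), LUM had 13.8 to 24.7 and 0.290 to 1.61, and DCN was listed at 0 in every library. In bulk libraries, fewer cells of a type and less RNA per cell cannot be told apart.

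Laminin-332 is a trimer secreted by epithelial cells into the basement membrane, to which LAMA3 gives the α chain and LAMB3 the β chain. Cells bind it through integrin α6β4, built from ITGA6 and ITGB4, and through integrin α3β1, built from ITGA3 and ITGB1. In the hemidesmosome, α6β4 is tied to keratin filaments by the plakins plectin (PLEC) and the epithelial form of dystonin (DST), with collagen XVII (COL17A1) as a further transmembrane part. Integrin α3β1 instead sits in adhesions that connect to actin.

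Promoter windows of 300 bases, from 250 before to 50 after an annotated start, were taken from RefSeq on GRCh38.p14, which held at least 1 window for 6 of the 9 genes: LAMA3, LAMB3, ITGA6, ITGB1, COL17A1 and DST. They are shown for LAMA3 and LAMB3, which both rose in degron (−) cells in the tests below. The motif TGACTCA, whose reverse complement is TGAGTCA, is the textbook binding sequence of AP-1, a transcription factor of the JUN and FOS families. It was searched on both strands and is set in capitals. The LAMA3 window at chr18:23872770-23873069 (plus strand) held 2 matches, whose first bases lay at -125 and -69 from the start. Of 3 LAMB3 windows, all on the minus strand of chromosome 1, the one at chr1:209651325-209651624 held 1 match at -67, and the one at chr1:209652376-209652675 held none, nor did the window that overlaps it.
LAMA3: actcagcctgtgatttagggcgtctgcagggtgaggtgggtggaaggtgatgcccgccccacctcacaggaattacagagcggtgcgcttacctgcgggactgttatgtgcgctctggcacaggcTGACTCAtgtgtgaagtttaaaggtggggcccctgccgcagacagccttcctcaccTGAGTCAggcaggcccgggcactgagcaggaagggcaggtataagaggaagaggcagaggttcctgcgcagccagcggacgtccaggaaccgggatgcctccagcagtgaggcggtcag
LAMB3 with a match: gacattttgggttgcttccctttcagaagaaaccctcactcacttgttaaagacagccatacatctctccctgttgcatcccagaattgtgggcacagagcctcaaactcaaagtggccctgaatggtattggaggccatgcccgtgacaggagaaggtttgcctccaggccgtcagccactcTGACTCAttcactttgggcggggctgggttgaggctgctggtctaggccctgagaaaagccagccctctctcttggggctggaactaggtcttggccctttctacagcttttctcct
LAMB3 without a match: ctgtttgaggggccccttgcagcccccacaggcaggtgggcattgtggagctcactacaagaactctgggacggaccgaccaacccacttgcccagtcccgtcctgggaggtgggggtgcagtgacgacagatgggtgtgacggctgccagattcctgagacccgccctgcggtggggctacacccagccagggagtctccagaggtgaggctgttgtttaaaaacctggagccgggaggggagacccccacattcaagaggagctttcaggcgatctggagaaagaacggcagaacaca
The only other match among these genes lay in 1 of 3 DST windows, at 26 bases after the start. Of all 35116 windows, 4.95% held at least 1 match and 0.222% held at least 2. A match describes these letters and shows no binding.

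LAMA3 and LAMB3 were both several-fold higher in degron (++) than in degron (−) cells. Unirradiated degron (++) libraries had 129 and 127 FPKM of LAMA3, against 25.0 and 23.7 in degron (−). At 4 Gy and 30 h the values were 154 and 153 against 21.1 and 23.3, and at 4 Gy and 48 h they were 137 in both against 38.8 and 42.8. Every degron (++) library was thus above every degron (−) library, and the gap was narrowest at 4 Gy and 48 h. The ratio of means was 5.25 without irradiation, 6.91 at 30 h and 3.36 at 48 h. On the log2(FPKM + 1) scale, which understates changes of low genes, the differences were 2.35, 2.74 and 1.73, each with a standard error of 0.0563.

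LAMB3 separated the populations in the same way, at slightly lower levels. In unirradiated cells it had 90.8 and 92.1 FPKM in degron (++) and 20.9 and 18.9 in degron (−). With 4 Gy it had 119 and 117 against 18.6 and 20.0 at 30 h, and 120 and 125 against 36.9 and 42.0 at 48 h. The populations did not overlap, and LAMA3 exceeded LAMB3 in every library. The ratio of LAMA3 to LAMB3 in FPKM was 1.10 to 1.42 in degron (++) libraries and 1.02 to 1.25 in degron (−) libraries. The LAMB3 differences between populations were 2.15, 2.56 and 1.61 on the log2 scale, with a standard error of 0.0666.

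Of the 2 chains of integrin α6β4, ITGB4 differed widely between populations and ITGA6 hardly at all. ITGB4 had 61.0 FPKM in both unirradiated degron (++) libraries, against 11.4 and 9.28 in degron (−). At 4 Gy it had 58.2 and 55.5 against 6.97 and 7.88 at 30 h, and 57.8 in both against 11.9 and 14.3 at 48 h. No degron (−) library came near a degron (++) library, and the ratios of means were 5.90, 7.65 and 4.42 in the same order of conditions. The log2 differences were 2.46, 2.78 and 2.07, with a standard error of 0.101.

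ITGA6, the α chain that pairs with ITGB4 or ITGB1, had 32.4 and 32.0 FPKM in unirradiated degron (++) libraries and 27.0 and 31.6 in degron (−). At 4 Gy it had 34.6 and 37.0 against 34.0 and 32.9 at 30 h, and 31.9 and 31.0 against 31.6 and 31.2 at 48 h. The populations overlapped, and the log2 differences of 0.14, 0.10 and 0.01 had a standard error of 0.0655. With each library rescaled to the same sum (TPM) they turned to -0.07, -0.18 and -0.25, the last of these past the threshold. As a result the ratio of ITGA6 to ITGB4 was 0.524 to 0.667 in degron (++) libraries and 2.18 to 4.87 in degron (−) libraries, so that ITGB4 was the more abundant transcript in the first population and ITGA6 in the second.

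Both chains of integrin α3β1 were lower in degron (++) cells, and by much less than the laminin chains were higher. ITGA3 had 81.0 and 85.3 FPKM in unirradiated degron (++) libraries and 126 and 121 in degron (−). At 4 Gy it had 86.2 and 82.6 against 122 in both at 30 h, and 76.6 and 81.0 against 126 in both at 48 h. All 6 degron (++) libraries lay below all degron (−) libraries, with log2 differences of -0.57, -0.52 and -0.67 (standard error 0.0416). ITGB1, which pairs with many α chains, had the highest level of the 9 genes in either population, from 166 to 177 FPKM in degron (++) with a median of 172, and from 235 to 254 in degron (−) with a median of 245. Its log2 differences were -0.50, -0.50 and -0.49 (standard error 0.0437), the same in all 3 conditions within their error.

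The 2 plakins differed in opposite directions. PLEC had 110 and 111 FPKM in unirradiated degron (++) libraries and 89.0 and 87.1 in degron (−). Over all conditions it ran from 102 to 111 (median 109) in degron (++) and from 86.3 to 92.1 (median 88.0) in degron (−). These ranges were close but did not overlap. The log2 differences were 0.33, 0.28 and 0.25 (standard error 0.0372), and under TPM rescaling those with 4 Gy turned to -0.00291 (30 h) and -0.0104 (48 h). DST had 9.03 and 8.78 FPKM in unirradiated degron (++) libraries and 18.7 and 22.6 in degron (−). At 4 Gy it had 7.45 and 7.29 against 24.9 and 21.7 at 30 h, and 8.53 and 7.43 against 25.0 and 20.9 at 48 h. DST was thus lower in every degron (++) library, with log2 differences of -1.12, -1.54 and -1.41 (standard error 0.114), and the ratio of PLEC to DST lay between 12.1 and 14.6 in degron (++) libraries and between 3.46 and 4.77 in degron (−) libraries. The values of DST do not separate its epithelial form from its other forms.

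COL17A1 was close to 0 throughout. It had 0.109 to 0.265 FPKM (median 0.180) in degron (++) and 0.076 to 0.237 (median 0.152) in degron (−), overlapping ranges that did not reach the limit of 1 FPKM in at least 2 libraries needed for a test.

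**Figure D1:**
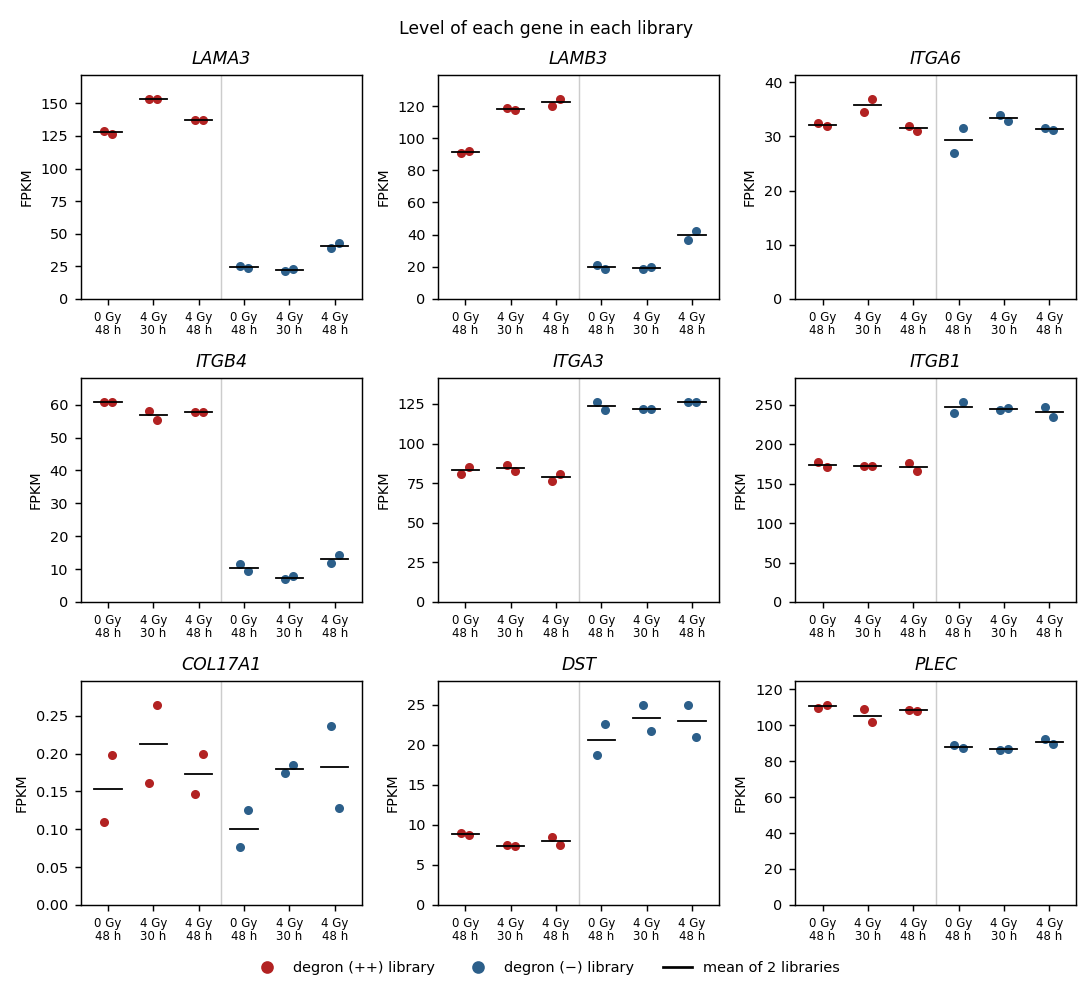
FPKM of the 9 genes in each library; points are libraries, 2 in each group of dose and time, and bars are group means. LAMA3, LAMB3 and ITGB4 were several-fold higher in degron (++), ITGA3, ITGB1 and DST were lower, PLEC was slightly higher, and ITGA6 and COL17A1 overlapped.

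In order of level, degron (++) libraries had ITGB1 first (mean 173 ± 3.92 FPKM, SD, n = 6), then LAMA3 (139 ± 11.7), LAMB3 (111 ± 15.1), PLEC (108 ± 3.33), ITGA3 (82.1 ± 3.48), ITGB4 (58.5 ± 2.12), ITGA6 (33.2 ± 2.23), DST (8.08 ± 0.780) and COL17A1 (0.180 ± 0.0537). Only LAMB3 and PLEC overlapped among these neighbours. In degron (−) libraries ITGB1 was again first (244 ± 6.65 FPKM, SD, n = 6), followed by ITGA3 (124 ± 2.62), PLEC (88.5 ± 2.16), ITGA6 (31.4 ± 2.36), LAMA3 (29.1 ± 9.21), LAMB3 (26.2 ± 10.4), DST (22.3 ± 2.45), ITGB4 (10.3 ± 2.74) and COL17A1 (0.155 ± 0.0563). Here ITGA6, LAMA3 and LAMB3 each overlapped the next gene in this order, and DST did not overlap ITGB4. These means and SDs pool the 3 conditions, and the order of overlapping neighbours depended on the condition. In degron (−) without irradiation, ITGA6 had a mean of 29.3 FPKM, above LAMA3 (24.3) and LAMB3 (19.9). At 4 Gy and 48 h it had 31.4, below LAMA3 (40.8) and LAMB3 (39.5). In every condition LAMA3 and LAMB3 stood above ITGA3 in degron (++) and below it in degron (−).

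Counted together, 4 of the 8 tested genes (LAMA3, LAMB3, ITGB4 and PLEC) were higher and 3 (ITGA3, ITGB1 and DST) lower in degron (++) past the threshold of adjusted p under 0.05 (limma, Benjamini-Hochberg) in each of the 3 conditions. ITGA6 was past it in none of these fits, though it was higher by 0.24 and past it without replicate 2 of unirradiated degron (−). Of all genes, 77.7% were past the threshold without irradiation, 79.1% after 30 h with 4 Gy and 76.7% after 48 h with 4 Gy, and since the genes were chosen with these differences known nothing is read from their count. The same 4 and 3 genes had all 6 degron (++) libraries above or below all 6 degron (−) libraries, which held for 34.1% and 37.2% of all tested genes. The median log2 difference of the 8 genes was 0.23 without irradiation, against -0.02 for all tested genes. It stands for genes that ran from -1.12 (DST) to 2.46 (ITGB4), and nothing is read from it either.

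**Figure D2:**
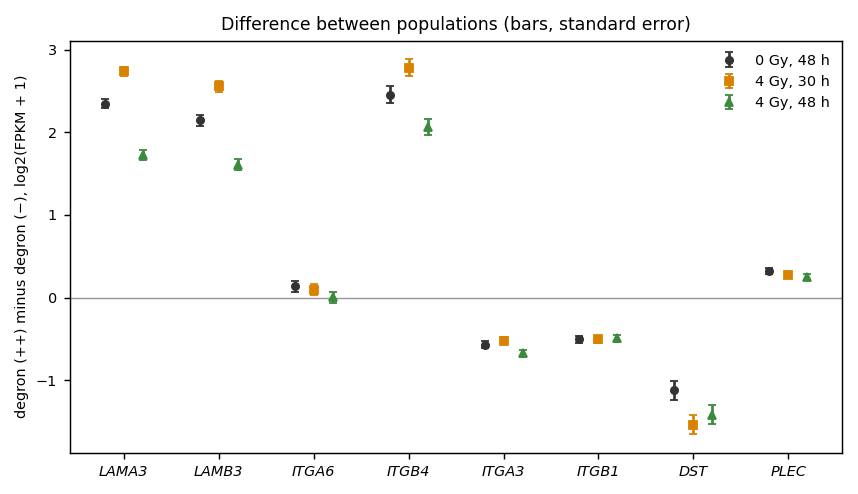
Difference between populations, degron (++) minus degron (−) on the log2(FPKM + 1) scale, for the 8 tested genes in 3 conditions; bars are standard errors of the fit. LAMA3, LAMB3 and ITGB4 lie above 1.6, ITGA6 lies near 0, and DST lies below -1.1.

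Whether irradiation went with a change was asked at 48 h by comparing 4 Gy with 0 Gy in each population. In degron (−) cells both laminin chains rose. LAMA3 went from a mean of 24.3 ± 0.886 to 40.8 ± 2.82 FPKM (SD, n = 2 each), a ratio of 1.68 and a log2 difference of 0.72 (95% interval 0.59 to 0.85, adjusted p = 0.000637, limma). LAMB3 went from 19.9 ± 1.39 to 39.5 ± 3.60 FPKM, a ratio of 1.98 and a log2 difference of 0.95 (95% interval 0.80 to 1.10, adjusted p = 0.000637, limma). Both 4 Gy libraries exceeded both 0 Gy libraries for either gene. The LAMA3 rise is a part of the interaction given below, which was known from an earlier account, so it is not independent support. ITGB4 had 11.9 and 14.3 FPKM with 4 Gy against 11.4 and 9.28 without, a log2 difference of 0.32 that did not pass (95% interval 0.09 to 0.54, adjusted p = 0.120, limma). The other 5 tested genes did not pass, with log2 differences between -0.03 (ITGB1) and 0.15 (DST), and the interval of DST reached from -0.11 to 0.41. Of all genes, 4.73% passed in this comparison, and of the 8 genes 2 did. Fitted on only the 4 libraries compared, LAMA3 and LAMB3 each had an adjusted p of 0.114 (limma), and 8 genes in all passed.

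In degron (++) cells LAMB3 was the 1 tested gene of the set that rose with 4 Gy at 48 h. It had 91.4 ± 0.918 FPKM without and 122 ± 3.34 with irradiation (SD, n = 2 each), a ratio of 1.34 and a log2 difference of 0.42 (95% interval 0.26 to 0.57, adjusted p = 0.0261, limma). The call was lost with any 1 of the 4 libraries left out (adjusted p between 0.0953 and 0.148, limma) and with only the libraries compared (0.155). LAMA3 had a log2 difference of 0.10 (95% interval -0.03 to 0.23, adjusted p = 0.409, limma), with 137 FPKM in both irradiated libraries against 129 and 127. Of all genes, 1.82% (236) passed in this comparison, and with 1 of the 4 libraries left out between 1 and 36 genes did. The remaining 6 genes lay between -0.15 (DST, 95% interval -0.40 to 0.11) and -0.02 (ITGB1, 95% interval -0.12 to 0.08).

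The difference between these dose effects was itself tested as an interaction at 48 h. The dose effect on LAMA3 in degron (++) minus that in degron (−) was -0.62 on the log2 scale (95% interval -0.80 to -0.44, adjusted p = 0.0462, limma). This difference was already known from an earlier account of these data and is not independent support. It passed in 1 of 8 fits that left out 1 library and in 4 of 8 other alternatives, with adjusted p between 0.0244 and 0.208 (limma), and the library whose omission kept the call was replicate 1 of degron (−) at 4 Gy and 48 h. LAMB3 had an interaction of -0.54 (95% interval -0.75 to -0.32, adjusted p = 0.0868, limma) and ITGB4 of -0.39 (95% interval -0.71 to -0.07, adjusted p = 0.291, limma), neither of which passed. Of all genes, 0.0772% passed.

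Whether levels changed between 30 h and 48 h at 4 Gy was asked in the same way, and this comparison shares the libraries of 4 Gy and 48 h with the one of dose. In degron (−) cells LAMA3, LAMB3 and ITGB4 rose. LAMA3 went from 22.2 ± 1.55 to 40.8 ± 2.82 FPKM, a ratio of 1.84 and a log2 difference of 0.85 (95% interval 0.72 to 0.98, adjusted p = 0.000176, limma). LAMB3 went from 19.3 ± 0.957 to 39.5 ± 3.60 FPKM, a ratio of 2.05 and a log2 difference of 0.99 (95% interval 0.84 to 1.15, adjusted p = 0.000176, limma). ITGB4 went from 7.43 ± 0.642 to 13.1 ± 1.66 FPKM, a ratio of 1.76 and a log2 difference of 0.74 (95% interval 0.51 to 0.97, adjusted p = 0.00357, limma). Both libraries at 48 h exceeded both at 30 h for these 3 genes. The remaining 5 genes did not pass, and their log2 differences ran from -0.09 (ITGA6, 95% interval -0.24 to 0.06) to 0.07 (PLEC, 95% interval -0.02 to 0.15). Of all genes, 7.18% passed. With only the 4 libraries compared, the adjusted p of the 3 genes lay between 0.0682 and 0.0991 (limma), and 7 genes in all passed.

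In degron (++) cells none of the 8 genes passed between 30 h and 48 h (limma). Of them 3, LAMA3, ITGA6 and ITGA3, had an unadjusted p under 0.05, as had 2050 of all 12946 genes. LAMA3 had 154 and 153 FPKM at 30 h and 137 in both libraries at 48 h, a log2 difference of -0.16 (95% interval -0.29 to -0.04, adjusted p = 0.211, limma). LAMB3 differed by 0.05 (95% interval -0.10 to 0.20) and ITGB4 by 0.03 (95% interval -0.20 to 0.25). Of all genes, 1.21% passed in this comparison.

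The time effects differed between populations for the same 3 genes. The interaction was -1.01 on the log2 scale for LAMA3 (95% interval -1.19 to -0.83, adjusted p = 0.00136, limma), -0.95 for LAMB3 (95% interval -1.16 to -0.73, adjusted p = 0.00404, limma) and -0.71 for ITGB4 (95% interval -1.04 to -0.39, adjusted p = 0.0353, limma). Of all genes, 3.23% passed. LAMA3 and LAMB3 passed in all 8 fits that left out 1 library and in all 8 other alternatives. ITGB4 passed in 1 of 8, without replicate 1 of degron (−) at 4 Gy and 48 h, and in 5 of 8. Where its call was lost the adjusted p lay between 0.0555 and 0.124 (limma).

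**Figure D3:**
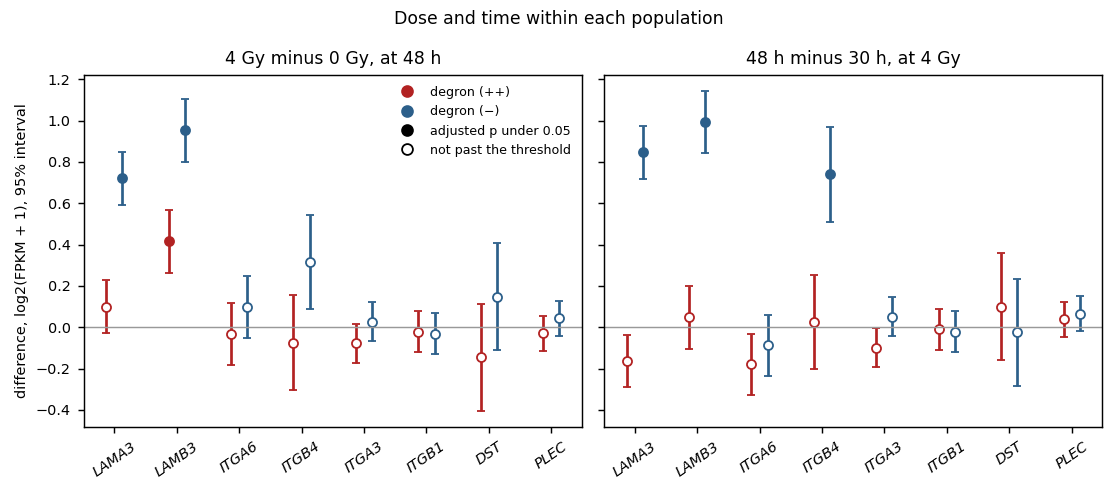
Change of the 8 tested genes with dose (4 Gy minus 0 Gy at 48 h, left) and with time (48 h minus 30 h at 4 Gy, right) on the log2(FPKM + 1) scale, with 95% intervals. Filled points passed adjusted p under 0.05: LAMB3 in degron (++) with dose, LAMA3 and LAMB3 in degron (−) with dose, and these with ITGB4 in degron (−) with time.

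The 9p21 genes CDKN2A and CDKN2B, which code for cell cycle inhibitors, and MTAP, an enzyme of methionine salvage, are given beside these results as markers of the populations. They were high in degron (++) and low but not at 0 in degron (−): CDKN2A had 100 to 112 FPKM in degron (++) and 11.0 to 21.1 in degron (−). In degron (−) cells all 3 rose between 30 h and 48 h at 4 Gy, by 0.73 (adjusted p = 0.00277, limma) for CDKN2A, 0.80 (adjusted p = 0.00315) for CDKN2B and 0.55 (adjusted p = 0.00280) for MTAP on the log2 scale. Between 0 Gy and 4 Gy they differed by 0.23, 0.45 and 0.27 and none passed (limma). All 3 had an unadjusted p under 0.05, as had 2704 of all 12946 genes. As a share of the degron (++) mean in the same condition, LAMA3 in degron (−) was at 14.5% at 4 Gy and 30 h, 19.0% without irradiation and 29.8% at 4 Gy and 48 h. The shares in the same order were 16.3%, 21.8% and 32.3% for LAMB3 and 13.1%, 17.0% and 22.7% for ITGB4. They were 11.5%, 16.2% and 18.5% for CDKN2A, 9.71%, 12.1% and 16.8% for CDKN2B, and 17.0%, 22.5% and 29.0% for MTAP. The mean shares of all 6 genes thus had the same order of conditions, but a share also moves with degron (++). LAMB3 in degron (−) overlapped between 0 Gy (18.9 to 20.9 FPKM) and 4 Gy at 30 h (18.6 to 20.0). Its degron (++) means there were 91.4 and 118. For CDKN2A the libraries at 0 Gy (14.5% to 17.9%) overlapped those at 4 Gy and 48 h (17.6% to 19.5%).

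The ductal markers KRT7 and EPCAM moved with them. In degron (−) cells KRT7 rose by 0.44 and EPCAM by 0.37 with dose, and by 0.86 and 0.64 with time (log2 scale, limma), while KRT8, KRT18 and KRT19 did not pass. Of all 778 genes that rose in degron (−) cells between 30 h and 48 h, 751 (96.5%) were higher in degron (++) cells without irradiation. Of all 12946 genes, 4864 were. That condition shares no library with the rise, but both calls came from the same fit and its estimates of spread, so they are not independent. The 152 genes that fell were not compared in this way. Of 499 genes that rose with dose, 392 (78.6%) were higher in degron (++) at 4 Gy and 30 h, against 4964 of 12946. With 1 library left out, the genes that rose with time numbered 264 to 606, of which 95.8% to 97.5% were higher in degron (++), and those that rose with dose 101 to 324, of which 80.4% to 91.0% were. Fitted on only the libraries compared, 4 genes rose in either comparison, and 1 of each 4 was higher in degron (++). Whether the degron (−) libraries held a varying share of cells like degron (++), and its part in the rise of LAMA3, LAMB3 and ITGB4, was not tested.

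**Figure D4:**
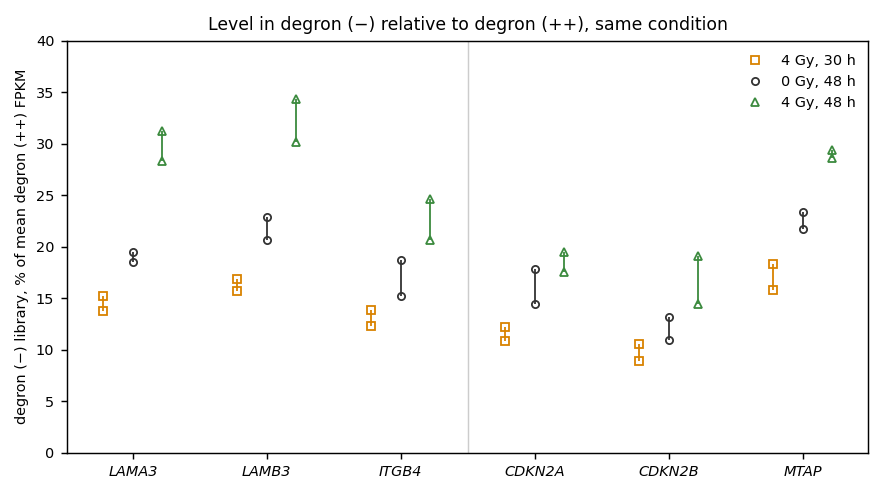
Level of each degron (−) library as a percentage of the mean degron (++) FPKM in the same condition, for 3 members of the set (left) and 3 genes of 9p21 (right); points are the 2 libraries of a group, joined by a line. In every gene the libraries of 4 Gy and 48 h lie highest on average and those of 4 Gy and 30 h lowest.

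Other chains of the same families did not share one direction. Of the other laminin chains, 9 were listed and 6 tested. Without irradiation, degron (++) cells had more of 4 and less of 2, with a median log2 difference of 0.75. LAMB1 (1.40, standard error 0.0377), LAMA5 (1.22, 0.0474) and LAMA4 (0.76, 0.124) were higher. LAMC3 was listed at 0 in all 6 degron (++) libraries and had 6.16 to 8.39 FPKM in degron (−). With dose in degron (−), LAMA4 rose by 0.69 and LAMB1 by 0.23, and with time LAMA5 by 0.39 and LAMB1 by 0.34. In degron (++), LAMA5 rose by 0.27 with time (adjusted p = 0.0388, limma), from a mean of 63.4 to 76.7 FPKM, against 89.3 without irradiation. No laminin chain of this list passed with dose in degron (++) (limma). Of 14 other integrin chains, 8 were tested, of which 2 were higher and 6 lower, with a median of -1.12. ITGB6, a chain of an epithelial fibronectin and TGF-β receptor, was higher by 2.88 (standard error 0.0890). ITGA5, the α chain of the main fibronectin receptor, was lower by -3.80 (0.0901), with a mean of 1.01 FPKM against 26.9. ITGB3 (-1.99, 0.0892) and ITGB5 (-1.46, 0.0391), which pair with the αV chain, were also lower. In degron (−), ITGB6 rose by 0.51 (adjusted p = 0.0175, limma) and ITGA5 by 0.39 (adjusted p = 0.0478, limma) with dose. With time ITGB6 rose by 0.83 (adjusted p = 0.00120, limma) and ITGA5 did not pass.

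Among hemidesmosome partners and plakins 5 of 7 genes were tested, 3 of them higher and 2 lower, with a median log2 difference of 0.87. Periplakin (PPL, 2.39, standard error 0.0548), desmoplakin (DSP, 2.07, 0.0494) and envoplakin (EVPL, 0.87, 0.0487), which link keratins to desmosomes or the cell envelope, were higher. MACF1, a plakin that binds actin and microtubules, was lower (-0.98, 0.0587), as DST was. The other lower gene was CD151, which is not a plakin (-0.84, 0.0559). It had a mean of 254 FPKM in degron (++) and 456 in degron (−) without irradiation, and differed by -0.86 and -0.80 at 4 Gy (30 h and 48 h). In degron (−), DSP rose by 0.25 with dose and 0.63 with time and PPL by 0.27 and 0.41. The basal keratins KRT5 and KRT14 did not reach the filter.

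Of the 5 genes of laminin processing and anchoring 4 were tested, 3 of them higher and 1 lower, with a median of 2.18. BMP1 (2.22, standard error 0.0545), a protease that trims laminin-332 and procollagens, had a mean of 29.2 FPKM in degron (++) and 5.50 in degron (−) without irradiation. MMP14 (2.15, 0.0675), a membrane-bound matrix protease, and NTN4 (2.41, 0.125), a netrin that binds laminin, were also higher. COL7A1, the collagen of anchoring fibrils below the hemidesmosome, was lower (-1.38, 0.0737). In degron (−) BMP1, MMP14 and NTN4 rose with dose, by 0.48, 0.49 and 0.61, and with time, by 0.74, 0.59 and 0.80. In degron (++) MMP14 (0.38) and COL7A1 (0.40) rose with dose, calls that were lost with any 1 of the 4 libraries left out (adjusted p between 0.0807 and 0.207, limma). BMP1 had a dose interaction of -0.61 (adjusted p = 0.0462, limma), also known from the earlier account.

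All 9 other basement membrane proteins and laminin receptors were tested, and 5 were higher, 2 lower and 2 not past the threshold, with a median of 0.68. NID2 (1.64, standard error 0.0539), a nidogen that links laminin to collagen IV, rose with dose in both populations, by 0.37 in degron (++) and 0.74 in degron (−). With time it rose by 0.93 in degron (−), and its time interaction was -0.96 (adjusted p = 0.00136, limma). The rise with dose in degron (++) was lost with any 1 of the 4 libraries left out (adjusted p between 0.0867 and 0.123, limma). BCAM (1.27, 0.0549), a laminin receptor, and AGRN (1.02, 0.0545) were higher and the proteoglycan HSPG2 lower (-1.29, 0.0631). Of 6 adhesion adaptors 1 was higher and 5 were lower, with a median of -0.47. FERMT1, the epithelial kindlin, was higher (1.67, 0.0499), and PXN (-1.35, 0.0434), ILK (-0.93, 0.0361) and PTK2 (-0.59, 0.0518) of focal adhesions were lower. Over these 6 lists 11 genes rose in degron (−) with time and all 11 were higher in degron (++) without irradiation. With dose 11 rose, and 10 of them, the exception being ITGA5, were higher in degron (++) at 4 Gy and 30 h. Of all tested genes that rose with time or with dose, 96.5% and 78.6% were higher in these conditions. Nothing is read from the counts of the lists.

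**Figure D5:**
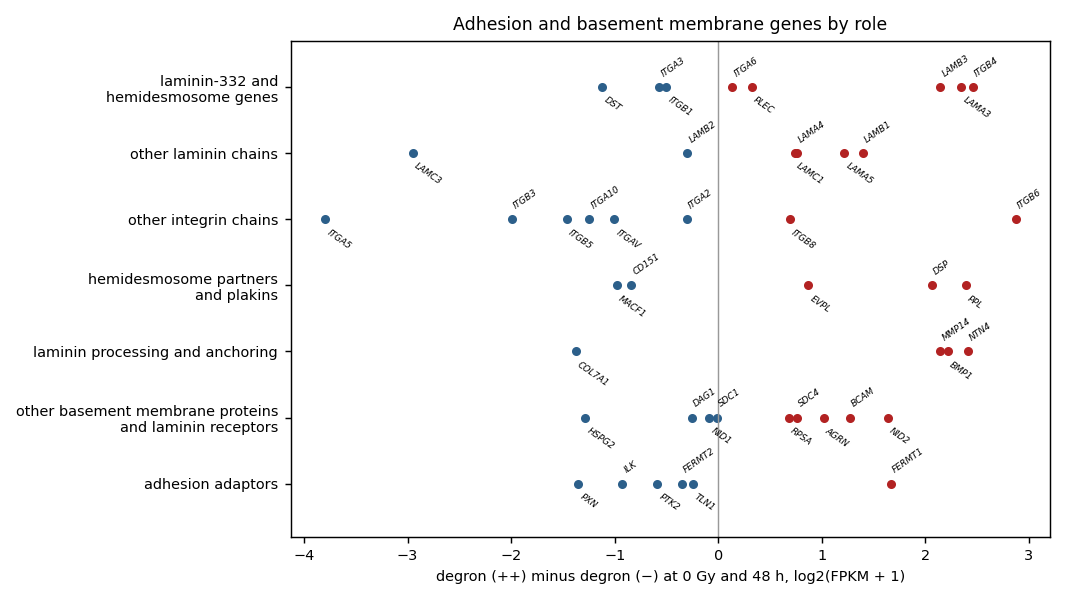
Difference between populations at 0 Gy and 48 h, degron (++) minus degron (−) on the log2(FPKM + 1) scale, for each tested gene of the set and of 6 related lists; points to the right are higher in degron (++). The point of LAMC3 stands for a gene listed at 0 in degron (++), and each of the 7 rows holds genes on both sides of 0.

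Genes with the pattern most like LAMA3 and ITGB4 were sought by Pearson correlation of log2(FPKM + 1) over the 12 libraries, as a description, since libraries of a population and of a condition share what sets them apart. After the mean of each population was subtracted, TRIM16 (0.982), NEDD9 (0.980), LYPD3 (0.977) and PEG10 (0.976) were among the genes most like LAMA3, and LAMB3 came at place 18 (0.960). SPOCK2 (0.991), STAT6 (0.983), LY6E (0.977), MPRIP (0.977) and PTGES (0.976) were most like ITGB4. Without subtraction, LYPD3, NEDD9, SERPINB9 and F3 were among the leading genes for LAMA3, and STAT6, SPOCK2, KRT81, UNC13D and LY6E led for ITGB4. After subtraction LAMB3 correlated with ITGB4 at 0.718. Of the 9p21 genes, MTAP, CDKN2A and CDKN2B correlated with LAMA3 at 0.876, 0.708 and 0.670 and with ITGB4 at 0.910, 0.883 and 0.857.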

How the data were processed

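RNA of 12 libraries labelled PANC-1, made with a stranded mRNA kit, was measured. The values deposited by the authors are FPKM per gene symbol, 1 file a library. The submitters' processing notes name hg19, TopHat2 2.1.1, Bowtie2 2.2.8, SAMtools 0.1.18 and Cuffdiff 2.2.1, and the annotation and strand setting are not given in the sources used here, so reads of overlapping antisense genes cannot be told apart. FPKM hold no counts. Steps between low FPKM put relative depth at 1.0 to 1.17 in degron (++) and 1.13 to 1.36 in degron (−), in units of the shallowest library.

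From the FPKM, log2(FPKM + 1) was fitted with limma 3.58.1 in R 4.3.3 (6 group means over all 12 libraries, eBayes with trend) on 12946 genes, those that reached 1 FPKM in 2 or more libraries, and p-values were adjusted over all of them by Benjamini-Hochberg. The fits were tested on simulated data. Ratios are of mean FPKM. Python 3.11.15, numpy 2.4.6, pandas 2.3.3 and matplotlib 3.10.9 were used for tables and figures. Groups came from the sample titles. RefSeq windows on GRCh38.p14 were matched by symbol and not placed on hg19.

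The members and lists were chosen with earlier results of these data known. Named genes are the 9 members, up to 4 tested genes of each list with the largest difference between unirradiated populations, the 5 genes most like LAMA3 and ITGB4, and the 9p21 genes. CD151 was added after its values were seen. Genes named as rising with dose or time beyond these were chosen after their values were seen, as were the counts of rising genes that were higher in degron (++) and their values with libraries left out. Some genes that the rule selects are not reported here. Alternatives were TPM rescaling, quantile normalization, a pseudocount of 0.1, a minimum of 5 FPKM or no minimum, a replicate block, eBayes without trend, fits of only the libraries compared, and leaving out each library in turn, where a lone library is assumed to vary like the other groups.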

Additional observations from a re-analysis of the deposited data

Results flagged for a closer look

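The results below are marked for a closer look because an effect of dose or time differed between the populations by a test of the interaction (limma, log2 scale, degron (++) minus degron (−)). The dose effect of LAMA3 at 48 h differed by -0.621, with a rise of 0.72 in degron (−) and a difference of 0.10 in degron (++) that did not pass. That result was already known from an earlier account of these data. The time effect at 4 Gy differed by -1.01 for LAMA3, by -0.947 for LAMB3 and by -0.714 for ITGB4, which rose by 0.85, 0.99 and 0.74 in degron (−) and had differences of -0.16, 0.05 and 0.03 in degron (++). The 9p21 genes CDKN2A and MTAP also passed for time, with -0.64 (adjusted p = 0.0405, limma) and -0.62 (adjusted p = 0.0180, limma). None of the 9p21 genes passed for dose (limma), where 1 of 3 had an unadjusted p under 0.05, as had 1758 of all 12946 genes. Of the ductal markers and related lists, NID2 (-0.96), KRT7 (-0.96), ITGB6 (-0.70), EPCAM (-0.69), DSP (-0.66), BMP1 (-0.53), FERMT1 (-0.44) and LAMB1 (-0.36) passed for time as well, all below 0. Of all 418 genes that passed for time, 352 were below 0, so nothing is read from the sign of these genes. What these share was not tested.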

How the results depend on the processing

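Of the values of single genes under an alternative, 848 were counted as unchanged. For dose, time and interaction this meant the same side of the threshold, and for population differences a value within the replicate spread. Dose, time and interaction values not past the threshold could turn sign and still count as unchanged. DST with time in degron (−) ran from -0.146 to 0.0998 with 1 library left out. Another 46 population differences moved beyond the replicate spread, and 31 tested values lost and 1 gained a call. Of values past the threshold, 2 turned sign: PLEC under TPM rescaling, at -0.00291 (4 Gy, 30 h) and -0.0104 (4 Gy, 48 h). ITGA6, whose population differences as reported were not past it, also turned negative under TPM rescaling, to -0.07, -0.18 and -0.25, and passed it there at 4 Gy and 48 h, and without replicate 2 of unirradiated degron (−) (0.24). TPM rescaling moved the median population difference of all genes from -0.02 to -0.21 without irradiation, and to -0.27 and -0.25 at 4 Gy. Counts of genes of the set past the threshold changed as follows. With only the libraries compared, they fell from 1 to 0 for dose in degron (++) and from 2 to 0 for dose in degron (−). They also fell from 1 to 0 for the dose interaction and from 3 to 0 for time in degron (−). These fits have fewer libraries, and the cause of the fall was not tested. The dose interaction also gave 0 with no filter (LAMA3 adjusted p = 0.0564, limma) and with eBayes without trend (0.0741), and 2 with TPM rescaling, where LAMB3 joined (adjusted p = 0.0369, limma); the cause was not tested. With each library left out, the count for dose in degron (++) was 0 to 0 and for the dose interaction 0 to 1, the call being kept without replicate 1 of degron (−) at 4 Gy and 48 h.

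Over 15 pairs of groups, deviations of same-numbered libraries correlated between -0.0381 and 0.122, and 2 were over 0.1. Whether same-numbered libraries shared a culture or batch was not tested. With the replicate number as a block the dose interaction count was 0 (LAMA3 adjusted p = 0.0668, limma) and the time interaction of ITGB4 had an adjusted p of 0.0583 (limma). With 2 libraries a group and no counts, the intervals given set what could be detected, and COL17A1 could not be compared.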
